A study of Mus musculus with 18 samples.

Results

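The genes described here are the islet's own means of receiving 3 added cytokines: the receptor chains for IL-1β (Il1r1, Il1rap and the decoy receptor Il1r2), the IL-1 receptor antagonist Il1rn, the TNF-α receptors Tnfrsf1a and Tnfrsf1b, the interferon-γ receptor chains Ifngr1 and Ifngr2, and the kinases Jak1 and Jak2. They are 10 of the 55536 genes of the count table, chosen by symbol for their roles, and all 10 passed the low-count filter that kept 17590 genes. RNA was sequenced from pancreatic islets of male NOD.CB17-Prkdcscid/NCrCrl mice (NOD.SCID background), aged 17 weeks. The series title concerns a reduced dose of zinc transporter 8 (ZnT8, the product of Slc30a8), beta cell dysfunction and mitochondrial respiration. Slc30a8 was intact (wild type, WT), present in 1 working copy (heterozygous, Het) or knocked out (KO). Every islet preparation was cultured overnight. It was then kept for 24 h in plain medium (untreated) or in medium to which IL-1β at 150 pg/ml, TNF-α at 100 pg/ml and IFN-γ at 10 pg/ml were added together (cytokines), so the effect of a single cytokine cannot be told apart. The 6 groups hold 3 libraries each, 18 in all. All groups share the scid mutation, which stops the maturation of T and B lymphocytes. Replicates are named by the number in the labels, and the labels do not say whether each library came from a separate mouse, so a p-value here reflects only how much these libraries vary, which may be technical.

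IL-1β and IFN-γ each act through a receptor of different chains, while Tnfrsf1a and Tnfrsf1b are separate receptors for TNF-α. IL-1β binds the IL-1 receptor chain Il1r1, which must recruit the accessory chain Il1rap to signal to NF-kB, while Il1r2 binds IL-1 without signalling and the secreted antagonist Il1rn occupies Il1r1. TNF-α signals through Tnfrsf1a, which carries a death domain, and through Tnfrsf1b, which lacks one and is known mainly from immune and endothelial cells. IFN-γ binds Ifngr1, and Ifngr2 is then needed to start signalling: Jak1 is bound to Ifngr1 and Jak2 to Ifngr2, and both kinases then pass the signal on by phosphorylation. Beta cells are known for abundant IL-1 receptor and for losing insulin secretion when IL-1β, TNF-α and IFN-γ act together.

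The promoters of 4 genes are shown: those of both interferon-γ receptor chains, of which Ifngr2 changed with cytokines and Ifngr1 did not pass the test, and those of both TNF receptors. They are the 250 bases before the transcription start, 5′ to 3′, from RefSeq on GRCm38.p6. Capitals mark a match on either strand to the NF-kB consensus, to the interferon-γ-activated site TTCNNNGAA (GAS) or to the interferon-stimulated response element core GAAANNGAAA (ISRE); none of the matches overlapped another.
Ifngr1 chr10:19591699-19591948 plus strand: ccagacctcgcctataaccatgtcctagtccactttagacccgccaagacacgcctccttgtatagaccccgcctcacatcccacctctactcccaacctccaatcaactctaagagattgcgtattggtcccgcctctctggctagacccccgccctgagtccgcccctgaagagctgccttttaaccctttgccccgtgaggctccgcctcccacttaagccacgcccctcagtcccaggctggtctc
Ifngr2 chr16:91546809-91547058 plus strand: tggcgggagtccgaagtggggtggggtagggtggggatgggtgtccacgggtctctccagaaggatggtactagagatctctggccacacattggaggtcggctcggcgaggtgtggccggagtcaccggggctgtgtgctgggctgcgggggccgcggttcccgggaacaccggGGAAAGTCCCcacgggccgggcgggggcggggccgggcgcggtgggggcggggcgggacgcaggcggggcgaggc
Tnfrsf1a chr6:125349473-125349722 plus strand: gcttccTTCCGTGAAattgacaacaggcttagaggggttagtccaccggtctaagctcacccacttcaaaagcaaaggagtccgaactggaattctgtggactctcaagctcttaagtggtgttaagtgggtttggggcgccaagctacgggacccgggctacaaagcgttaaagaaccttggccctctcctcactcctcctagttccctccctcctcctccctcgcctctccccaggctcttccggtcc
Tnfrsf1b chr4:145246871-145247120 minus strand: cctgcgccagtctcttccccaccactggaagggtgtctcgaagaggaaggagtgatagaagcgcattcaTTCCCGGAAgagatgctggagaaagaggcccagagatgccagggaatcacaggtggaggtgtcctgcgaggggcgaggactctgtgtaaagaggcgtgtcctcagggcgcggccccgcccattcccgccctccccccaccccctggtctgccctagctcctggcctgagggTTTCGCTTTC
Matches were searched in windows of 300 bases, which run to 50 bases past the start. Ifngr2 held 1 NF-kB match, on the minus strand, that began 75 bases before the start. Ifngr1 held none of the 3 motifs. Tnfrsf1a held a GAS match that began 244 bases before the start. By the GENCODE M21 annotation this gene starts at 125349362, so its window and this match lie inside the gene. Tnfrsf1b held a GAS match that began 181 bases before the start and an ISRE match on the minus strand in the last 10 bases before it. Among the other genes, Il1rap held an ISRE match that began at base 21 after the start, Il1r2 a GAS match that began 111 bases before the start, and the second of 2 start windows of Il1r1 an NF-kB match that began 232 bases before it. The window of Il1r2 also lies inside its GENCODE M21 gene, which starts at 40074079. No match was found in the 3 windows of Il1rn or in those of Jak1 and Jak2. Of all 32851 promoter windows of this length, 8.46% held the NF-kB consensus, 8.30% a GAS and 3.44% an ISRE core, so each of these motifs also stands in many promoters of other genes. A match describes letters and not a bound site.

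The libraries held 22990164 to 29946680 reads assigned to genes. Slc30a8, read as the check of the labels, ran without cytokines from 98.8 to 125 CPM (reads scaled to library size) for WT, 95.7 to 126 for Het and 44.0 to 55.9 for KO libraries. With cytokines the ranges were 34.5 to 46.4, 32.1 to 56.6 and 20 to 23.2 CPM. Both KO groups lay below the WT and Het groups of the same treatment, while Het and WT overlapped. The islet hormones Ins1, Ins2, Gcg and Sst had at least 90676 reads in every library. Markers of other cells were also present: the 13 acinar markers summed to 712 to 10200.3 CPM and all 13 were lower in KO than in WT islets, untreated, while the 10 endothelial markers summed to 215 to 701 CPM. Neutrophil markers summed to at most 1.41 CPM, with Elane, Ly6g and Ngp at 0 or 1 read, Csf3r at 4 to 42 and Camp at 0 to 22 reads. The B cell marker Ms4a1 had no read, while Cd79a of the same lymphocyte list had 12 to 38 reads. Untreated KO replicate 3 stood apart, with macrophage markers summing to 413 CPM against 155 and 158 CPM in the other untreated KO libraries. Its lymphocyte markers summed to 20.7 CPM against 0.942 to 3.08 CPM in the other 17 libraries. Most of this was Cd4, at 16.3 CPM. Cd3e, Cd3g, Cd8a, Nkg7 and Ncr1 of the lymphocyte list also had their highest counts in this library, at 41, 22, 12, 10 and 10 reads, and Cd79a did not. In bulk samples fewer cells of a type and less RNA per cell cannot be told apart.

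In untreated WT islets the receptor chain that binds IL-1β was by far the most abundant of the 10 genes for its length, and the chain that it needs to signal was nearly the least. On the scale of CPM per kilobase of merged exons, Il1r1 stood at 89.4 ± 0.73 (SD, n = 3), Tnfrsf1a at 39.7 ± 0.51 and Jak1 at 26.7 ± 0.63. Ifngr1 at 9.72 ± 0.80, Ifngr2 at 9.03 ± 0.77 and Jak2 at 8.67 ± 0.35 followed, and these neighbours in the order did not differ beyond their spread. Below them stood Il1rn at 3.95 ± 0.36, Tnfrsf1b at 2.09 ± 0.30, Il1rap at 0.764 ± 0.027 and Il1r2 at 0.607 ± 0.11. The last pair did not overlap in untreated WT libraries but did in untreated KO libraries, where Il1r2 ran from 0.617 to 1.01 and Il1rap from 0.741 to 0.825. The level of Il1r1 per length was 117 times that of Il1rap in untreated WT islets, 116 times in Het and 116 times in KO. Measured on the longest transcript in place of merged exons, the same ratio in untreated WT islets was 51.0, because Il1rap has 11360 bases of merged exons and a longest transcript of 4520 bases, and the order of the 10 genes stayed as given.

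**Figure D1:**
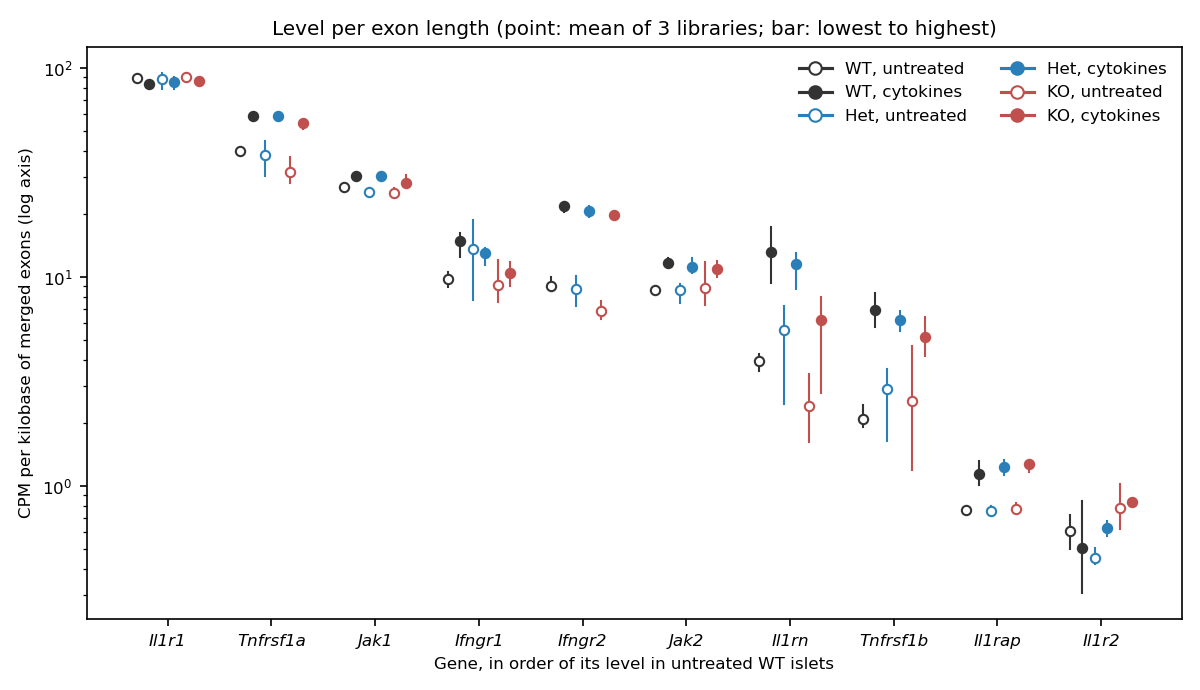
Level of each of the 10 genes on a log axis in CPM per kilobase of merged exons, with 1 point per group (mean of 3 libraries) and a bar from the lowest to the highest library. Il1r1 is at the top in every group and Il1rap and Il1r2 are at the bottom, and the points for Ifngr2 with cytokines stand apart from those without.

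With cytokines, 7 of the 10 genes rose in WT islets, 4 in Het and 5 in KO islets, and none fell (edgeR's quasi-likelihood test, Benjamini-Hochberg adjusted p under 0.05 over all genes tested). Of all genes tested, 12.5%, 12.7% and 15.3% rose in these comparisons, and 25.7%, 24.5% and 31.3% changed in either direction. Il1rap, Tnfrsf1a, Ifngr2 and Jak1 rose in all 3 genotypes, while Il1r1, Il1r2 and Ifngr1 passed in none. The median log2 fold change of the 10 genes was 0.57 in WT, 0.54 in Het and 0.51 in KO islets, beside -0.01, -0.03 and -0.03 over all genes tested. Markers of the islet's cell types also changed with the treatment. Of 10 beta cell markers 6 fell in each genotype, and 1 rose in KO islets; of 7 alpha cell markers 3 fell in each; and of 4 delta cell markers 3 were lower for WT, 1 for Het and 2 for KO. Of 7 duct cell markers 3 rose in WT and 3 in KO islets, where none fell. Their sum ran from 2068 to 3135 CPM untreated and from 4033 to 7141 CPM treated for WT, and from 1518 to 2097 and from 3291 to 4267 CPM for KO. None of the 13 acinar markers passed, and of 13 macrophage markers none rose. The part of these cells in the changes of the 10 genes was not tested, save for the covariate fits given with the marker sums. The treated and untreated libraries did not overlap for 9 of the 10 genes in WT, 8 in Het and 4 in KO islets, where 46.5%, 35.1% and 42.6% of all genes tested did not overlap.

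**Figure D2:**
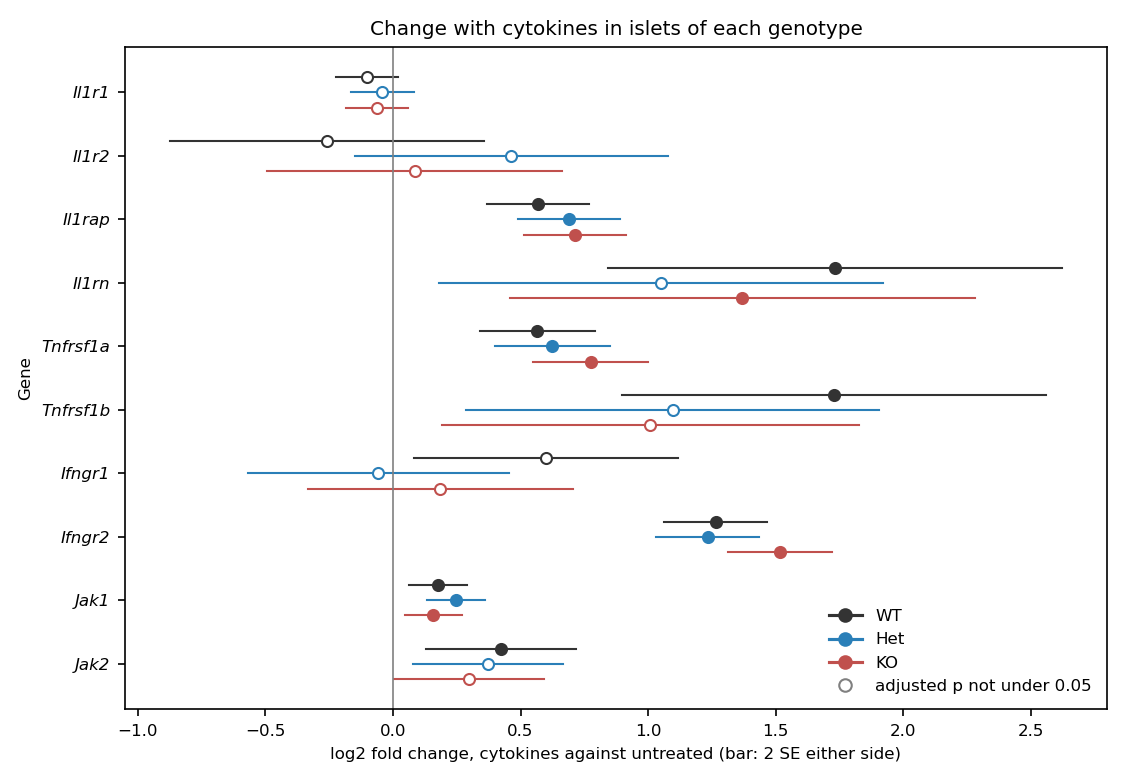
log2 fold change of each gene with cytokines against untreated islets of the same genotype, with bars of 2 standard errors (SE) either side; filled points passed an adjusted p of 0.05. Ifngr2 lies furthest from 0 relative to its bars, and Il1r1 lies close to 0 in all 3 genotypes.

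Of both chains of the interferon-γ receptor, the signalling chain rose in all 3 genotypes, and the binding chain passed in none with edgeR on all 18 libraries. Ifngr2 (ENSMUSG00000022965; GRCm38 chromosome 16, 91547072 to 91565623, plus strand) stood at 37.3, 32.1 and 32.6 CPM in untreated and 83.2, 85.6 and 76.6 CPM in treated WT libraries. Het libraries held 27.2, 33.8 and 37.9 CPM untreated against 81.7, 73.0 and 77.7 CPM treated, and KO libraries 23.6, 25.2 and 28.7 against 74.6, 76.0 and 71.7 CPM. Every treated library of any genotype lay above every untreated one. Its log2 fold change was 1.27 ± 0.10 (SE) in WT, 1.23 ± 0.10 in Het and 1.52 ± 0.10 in KO islets, with edgeR adjusted p-values of 2.55e-07, 2.38e-07 and 2.18e-08. This is a rise of 2.40-fold, 2.35-fold and 2.86-fold, and it held without any single library. Over the 18 libraries, the genes whose centred log2 CPM profile lay near that of Ifngr2 included the NF-kB subunit Nfkb2, at a root mean square difference of 0.111, and the Notch ligand Dll1 at 0.127.

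Ifngr1 (ENSMUSG00000020009; GRCm38 chromosome 10, 19591949 to 19610229, plus strand), the chain that binds IFN-γ, stood at 30, 27.6 and 25.5 CPM in untreated WT and at 46.1, 44.3 and 35.5 CPM in treated WT libraries. Het libraries held 21.9, 40.2 and 53.2 CPM untreated and 39.2, 39.2 and 32.4 CPM with cytokines, and KO libraries 21.6, 22.2 and 34.4 against 29.8, 25.7 and 33.6 CPM. Treated WT libraries were all above untreated ones, whereas in Het and KO the untreated libraries ran both below and above the treated ones. The log2 fold change was 0.60 ± 0.26 in WT, -0.06 ± 0.26 in Het and 0.19 ± 0.26 in KO islets (edgeR adjusted p = 0.11, 0.901 and 0.637). The difference of the Het from the WT response was -0.66 ± 0.36 and did not pass the test of the interaction (adjusted p = 0.881). The change in WT passed in other fits: on the WT libraries alone with edgeR (0.61, adjusted p = 0.00355), with DESeq2 (0.61, adjusted p = 0.0476) and with limma voom and quality weights (0.61, adjusted p = 0.00477). In WT islets the level of Ifngr1 per length relative to Ifngr2 was 1.08 untreated and 0.675 with cytokines, in Het 1.46 and 0.629, and in KO 1.31 and 0.527. The order of these chains per length was thus Ifngr1 over Ifngr2 in all 9 untreated libraries and the reverse in all 9 treated libraries. On longest transcripts the ratio in treated islets was 0.895, 0.834 and 0.700 and in untreated islets 1.43, 1.94 and 1.73.

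The kinase bound to the binding chain, Jak1 (ENSMUSG00000028530; GRCm38 chromosome 4, 101152367 to 101265282, minus strand), rose by a small amount. It stood at 197, 194 and 188 CPM in untreated WT and 229, 211 and 215 CPM in treated WT libraries. In Het it stood at 183, 189 and 181 against 229, 208 and 219 CPM, and in KO at 179, 177 and 191 against 195, 193 and 222 CPM. Treated and untreated libraries did not overlap in any genotype. Its log2 fold change was 0.18 ± 0.06 in WT, 0.25 ± 0.06 in Het and 0.16 ± 0.06 in KO islets (edgeR adjusted p = 0.0298, 0.00425 and 0.0428). The Het call held without any single library. The WT call was lost without untreated replicate 2 (adjusted p = 0.0694) or 3 (0.103) or treated replicate 1 (0.129) or 3 (0.0521), and the KO call without untreated replicate 1 (0.0786) or 2 (0.139) or treated replicate 3 (0.213).

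Jak2 (ENSMUSG00000024789; GRCm38 chromosome 19, 29251828 to 29313080, plus strand), the kinase of the signalling chain, stood at 45.5, 43.2 and 42.1 CPM in untreated and 61.9, 57.3 and 56.4 CPM in treated WT libraries. Het libraries held 37.5, 45.7 and 46.4 against 53.8, 61.6 and 52.3 CPM, and KO libraries 36.7, 37.6 and 59.3 against 53.9, 50.4 and 60.0 CPM. Only untreated KO replicate 3 reached into the treated range. The log2 fold change was 0.42 ± 0.15 in WT, 0.37 ± 0.15 in Het and 0.30 ± 0.15 in KO islets (edgeR adjusted p = 0.0468, 0.0819 and 0.144). The WT call was lost without any one of the 6 WT libraries: adjusted p = 0.0778, 0.113 and 0.126 without untreated replicates 1 to 3, and 0.135, 0.0797 and 0.0738 without treated replicates 1 to 3. Without untreated KO replicate 3 the KO change was 0.56 ± 0.10 and passed (adjusted p = 0.000428).

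Of the TNF receptors, the abundant Tnfrsf1a rose in all 3 genotypes and Tnfrsf1b, with a wider spread between replicates, passed in WT islets. Tnfrsf1a (ENSMUSG00000030341; GRCm38 chromosome 6, 125349362 to 125362484, plus strand) stood at 103, 104 and 102 CPM in untreated and 151, 149.9 and 156 CPM in treated WT libraries. In Het it stood at 78.8, 102 and 115 CPM against 152, 151 and 154 CPM, and in KO at 72.4, 76.0 and 97.1 CPM against 132, 144 and 144 CPM. All 9 treated libraries lay above all 9 untreated ones. Its log2 fold change was 0.57 ± 0.11 in WT, 0.62 ± 0.11 in Het and 0.77 ± 0.11 in KO islets (edgeR adjusted p = 0.00166, 0.000749 and 8.54e-05), and each call held without any single library.

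Tnfrsf1b (ENSMUSG00000028599; GRCm38 chromosome 4, 145213463 to 145246870, minus strand) stood at 9.32, 7.39 and 7.26 CPM in untreated and 32.0, 25.7 and 21.9 CPM in treated WT libraries. Het libraries held 6.21, 13.3 and 13.9 against 24.4, 26.1 and 20.9 CPM, and KO libraries 4.51, 6.78 and 17.8 against 18.7, 16.0 and 24.4 CPM. The treated libraries were the higher ones throughout WT and Het, and in KO untreated replicate 3 lay above the lowest treated library. The log2 fold change was 1.73 ± 0.42 in WT (edgeR adjusted p = 0.00753), 1.10 ± 0.40 in Het (0.0662) and 1.01 ± 0.41 in KO islets (0.0786), and the WT call held without any single library. Without untreated KO replicate 3 the KO change was 1.80 ± 0.33 and passed (adjusted p = 0.00107). The differences between the genotypes' responses did not pass: -0.63 ± 0.57 for Het against WT (adjusted p = 0.885) and -0.72 ± 0.58 for KO against WT (0.900). In WT islets Tnfrsf1a was 19.1 times Tnfrsf1b per length without cytokines and 8.55 times with them.

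Among the IL-1 genes, the accessory chain rose in all 3 genotypes and the antagonist in WT and KO islets, and the binding chain and the decoy did not pass. Il1r1 (ENSMUSG00000026072; GRCm38 chromosome 1, 40225080 to 40317257, plus strand) stood at 571, 572 and 564 CPM in untreated and 525, 528 and 537 CPM in treated WT libraries. In Het it stood at 599.8, 576 and 503 against 503, 573 and 557 CPM, and in KO at 551, 577 and 584 against 535, 568 and 537 CPM. Over all 18 libraries the lowest and the highest were 503 and 599.8 CPM, with treated libraries below untreated ones in WT and overlap in Het and KO. Its log2 fold change was -0.10 ± 0.06 in WT, -0.04 ± 0.06 in Het and -0.06 ± 0.06 in KO islets (edgeR adjusted p = 0.242, 0.682 and 0.477). Intervals of 2 SE ran from -0.22 to 0.02 in WT, -0.16 to 0.08 in Het and -0.18 to 0.06 in KO, so a rise of the size seen in Il1rap lies outside them.

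Il1rap (ENSMUSG00000022514; GRCm38 chromosome 16, 26581704 to 26730117, plus strand) stood at 8.38, 8.66 and 8.99 CPM in untreated and 15.0, 12.2 and 11.4 CPM in treated WT libraries. Het libraries held 8.60, 9.05 and 8.24 against 14.1, 15.0 and 12.7 CPM, and KO libraries 8.42, 9.37 and 8.52 against 15.1, 13.2 and 14.8 CPM. The 9 untreated libraries were close together and all lay below the 9 treated ones. The log2 fold change was 0.57 ± 0.10 in WT, 0.69 ± 0.10 in Het and 0.71 ± 0.10 in KO islets (edgeR adjusted p = 0.000548, 8.46e-05 and 4.48e-05), and the calls held without any single library. Relative to Il1rap, the level of Il1r1 per length was 74.0 in WT, 69.8 in Het and 67.9 in KO islets with cytokines, below the untreated ratios. An antisense gene, Gm20319, overlaps 552 bases of the exons of Il1rap, and reads of both cannot be told apart where strand was not used in counting.

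Il1rn (ENSMUSG00000026981; GRCm38 chromosome 2, 24336853 to 24351494, plus strand) stood at 23.5, 22.5 and 19.7 CPM in untreated and 95.3, 71.1 and 51.9 CPM in treated WT libraries. In Het it stood at 13.6, 39.9 and 38.3 against 71.6, 70.1 and 48.5 CPM, and in KO at 8.95, 12 and 19.0 against 44.4, 15.3 and 43.5 CPM. Treated libraries were the higher ones throughout WT and Het, and treated KO replicate 2 fell among the untreated KO libraries. Its log2 fold change was 1.73 ± 0.45 in WT (edgeR adjusted p = 0.0113), 1.05 ± 0.44 in Het (0.101) and 1.37 ± 0.46 in KO islets (0.0355). The WT call held without any single library. The KO call was lost without untreated replicate 1 (adjusted p = 0.117) or 2 (0.104) or treated replicate 1 (0.120) or 3 (0.107). Its pooled SD within groups, 0.60 on the log2 scale, was the largest of the 10 genes and stood at percentile 97.8 of genes with a mean of at least 5 CPM, beside 0.07 for Jak1 and Il1r1.

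Il1r2 (ENSMUSG00000026073; GRCm38 chromosome 1, 40074079 to 40125231, plus strand), the decoy receptor, had 14 to 59 reads per library. It stood at 1.39, 0.953 and 1.14 CPM in untreated and 0.703, 0.584 and 1.61 CPM in treated WT libraries, while Het libraries held 0.956, 0.804 and 0.831 against 1.20, 1.09 and 1.29 CPM and KO libraries 1.37, 1.18 and 1.93 against 1.62, 1.61 and 1.54 CPM. The log2 fold change was -0.26 ± 0.31 in WT, 0.46 ± 0.31 in Het and 0.08 ± 0.29 in KO islets (edgeR adjusted p = 0.585, 0.306 and 0.858). None of these passed, and intervals of 2 SE ran from -0.88 to 0.36, -0.15 to 1.08 and -0.49 to 0.66. In WT the value hung on treated replicate 3: without it the change was -0.85 ± 0.26 and passed (adjusted p = 0.0308).

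**Figure D3:**
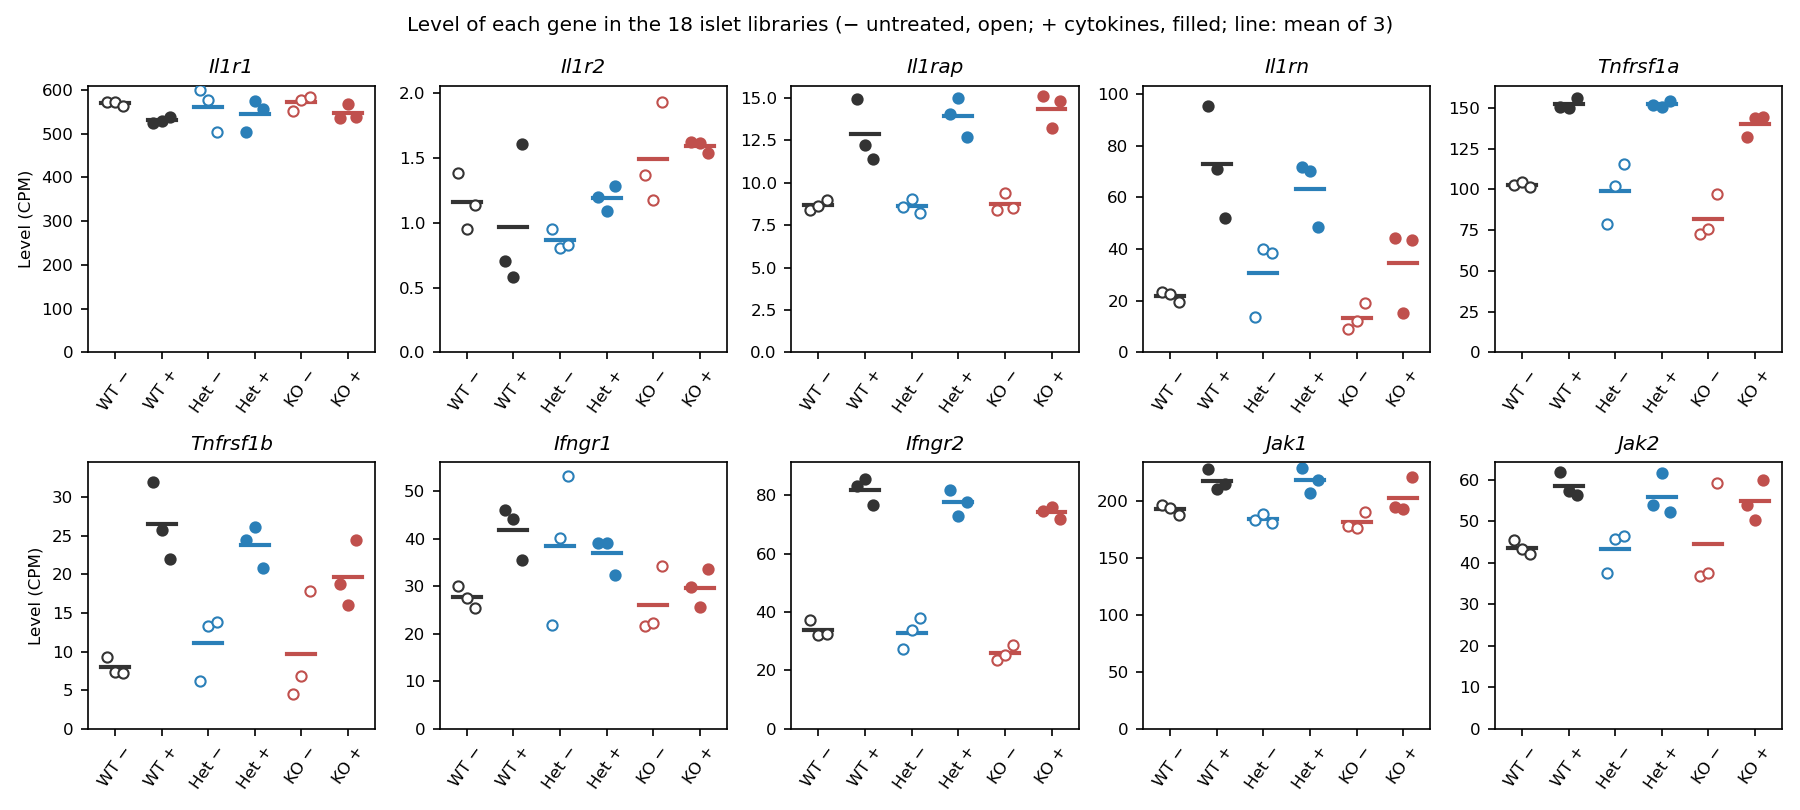
Level of each gene in CPM in every library, with open points untreated, filled points treated and a line at the mean of 3. Il1rap, Tnfrsf1a and Ifngr2 separate completely by treatment, and untreated KO replicate 3 (the rightmost open KO point) is high for Tnfrsf1b, Ifngr1 and Jak2.

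Il1rn, Tnfrsf1b, Il1r2, Ifngr1 and Jak2 had the widest spread between replicates. Along with those of other cell types given below, markers of stellate and mesenchymal cells also differed between replicates. The sum of 12 such markers, among them Col1a1 and Pdgfrb, without cytokines was 1466, 1648 and 1656 CPM for the WT libraries, 955, 2501 and 2751 for Het and 1542, 1412 and 3502 for KO. The library with the lowest sum among untreated Het, replicate 1, was also the lowest of the 3 for Il1rn, Tnfrsf1b, Ifngr1, Jak2, Tnfrsf1a and Ifngr2, the middle one for Il1rap and Jak1 and the highest for Il1r1 and Il1r2. The library with the highest sum among untreated KO, replicate 3, was the highest of the 3 for 9 of the 10 genes, all but Il1rap. Among untreated WT, where the sums lay closer together, it was otherwise. Replicate 1 had the lowest sum there and was the highest of the 3 for Il1rn, Tnfrsf1b, Il1r2, Ifngr1, Ifngr2, Jak1 and Jak2. That library was the middle one for Il1r1 and Tnfrsf1a and the lowest for Il1rap. With cytokines the sums were 1289, 902 and 709 CPM for WT, 451, 1086 and 508 for Het and 845, 486 and 1702 for KO libraries, and 5, 9 and 3 of the 12 markers fell in WT, Het and KO islets, none rising. With this sum as a covariate, a fit chosen after seeing the data, 8 genes rose in each genotype, all but Il1r1 and Il1r2. The share of all genes tested that rose was also larger in this fit, at 20.1%, 16.4% and 19.1% for WT, Het and KO islets. Ifngr1 was then at 0.89 ± 0.18 in WT, 0.63 ± 0.22 in Het and 0.66 ± 0.20 in KO islets. The markers themselves fell with the treatment, so this covariate and the treatment overlap. Untreated Het replicate 1 was also the lowest of its group for duct cell markers, at 1871 CPM against 4113 and 5233. For macrophage markers it stood at 124 CPM against 210 and 181. Its limma voom quality weight, 0.23, was the lowest of the 18. Untreated KO replicate 3, high in macrophage and lymphocyte markers, also had the highest endothelial sum of its group, 464 CPM against 314 and 336. Its duct sum was not the highest. These sums cannot tell which cell type the spread followed. Another fit chosen after seeing the data left out both untreated Het replicate 1 and untreated KO replicate 3. In it 6 genes rose in Het and 8 in KO islets, where 13% and 15.5% of all genes tested rose. Ifngr1 in KO stood at 0.44 ± 0.15. Leaving out the untreated KO library that was highest for 9 of the 10 genes makes their rise in KO larger by itself. This count is therefore no test of what the spread followed.

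**Figure D4:**
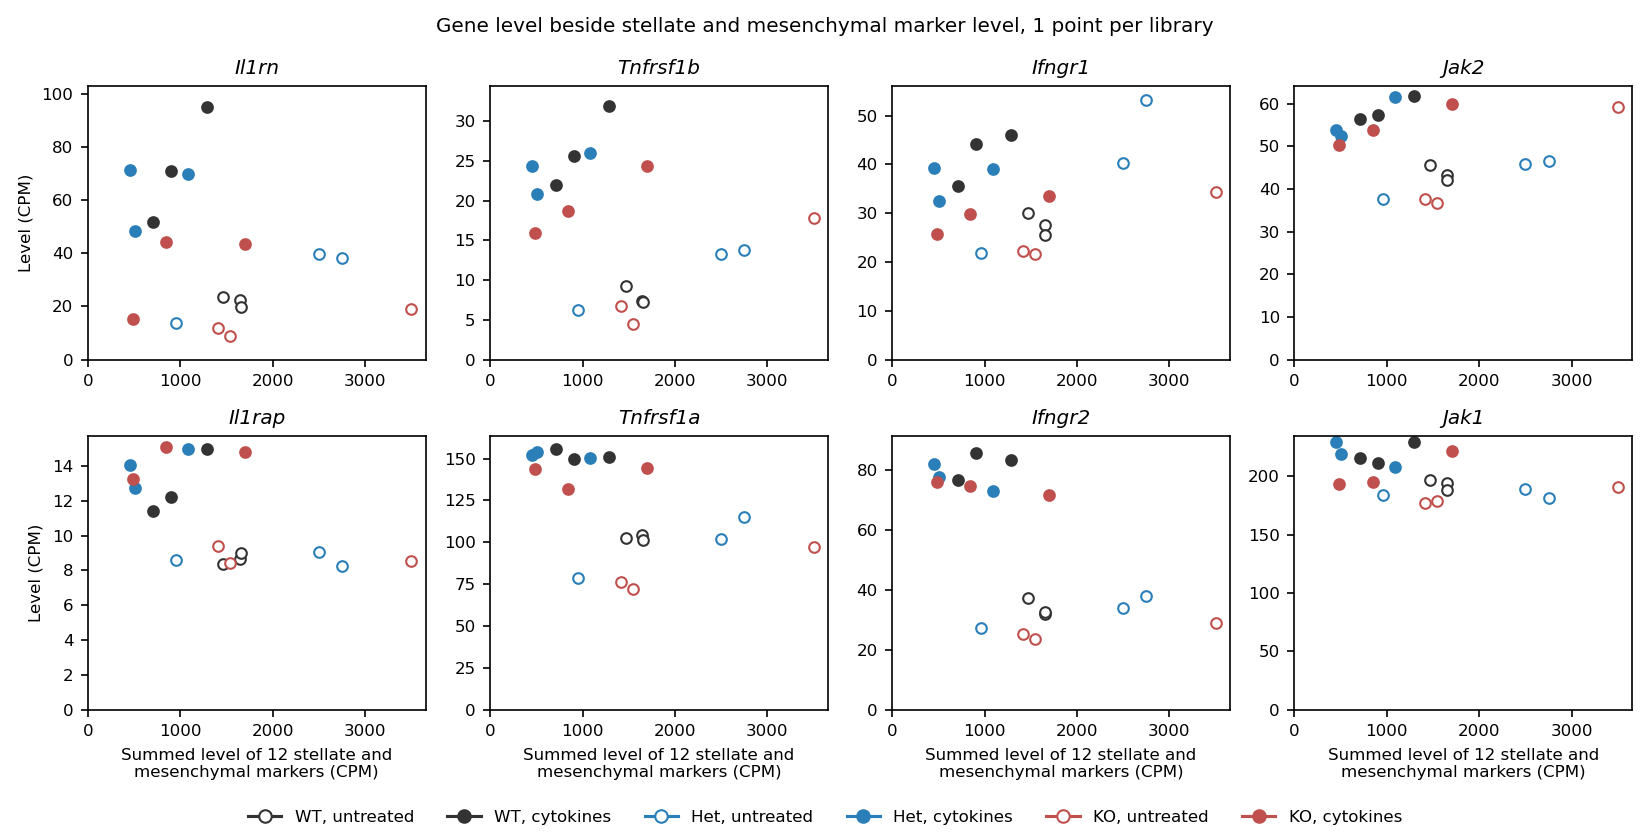
Level of 8 of the genes in CPM against the summed level of 12 stellate and mesenchymal markers in CPM, 1 point per library. In the upper row untreated libraries with a high marker sum are among the higher untreated ones for Tnfrsf1b, Ifngr1 and Jak2, while in the lower row Il1rap and Ifngr2 differ mainly by treatment.

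Between genotypes few differences of the 10 genes passed with edgeR on all 18 libraries, which does not show that the differences were small. Of 60 comparisons of a gene between genotypes, 1 passed and 9 had an unadjusted p under 0.05. In untreated islets 1 of 10 genes was lower in KO than in WT, where 2.94% of all genes tested changed. This was Ifngr2, at 25.9 ± 2.63 CPM (SD, n = 3) where WT islets had 34.0 ± 2.89 CPM, a log2 difference of -0.39 ± 0.10 (edgeR adjusted p = 0.0493); the groups did not overlap, as for 3 of the 10 genes and 25.7% of all genes tested. The call lay at the threshold and was lost without untreated WT replicate 1 (adjusted p = 0.221), 2 (0.0776) or 3 (0.0869) or KO replicate 1 (0.202) or 2 (0.145), while the value ran from -0.32 to -0.44 in these fits. All 13 acinar markers were lower in the same comparison. With acinar and macrophage marker levels as covariates Ifngr2 was at -0.52 ± 0.19 and did not pass, and 0 of all genes tested passed in that fit, against 517 without the covariates. Tnfrsf1a was also lower in every untreated KO than in every untreated WT library, at -0.33 ± 0.11 (edgeR adjusted p = 0.135). It passed without untreated KO replicate 3, the highest of its group for this gene, at -0.47 ± 0.10 (edgeR adjusted p = 0.0381).

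No gene of the 10 passed between Het and WT, untreated or with cytokines (0.00569% and 0% of all genes tested), or between KO and Het, untreated or with cytokines (0% and 0.00569%). None passed between KO and WT with cytokines, where 5.33% of all genes tested changed. In these 5 comparisons edgeR gave 0, 0, 5, 0 and 2 genes with an unadjusted p under 0.05, in the order Het against WT untreated, Het against WT with cytokines, KO against Het untreated, KO against Het with cytokines and KO against WT with cytokines. DESeq2 called none in any of the 5, where it called 0.284%, 0.33%, 1.87%, 0.307% and 9.02% of all genes. limma voom with quality weights called 4 for KO against Het untreated, 4 for KO against WT with cytokines and none in the other 3, but it called 0.00569%, 0.671%, 13%, 0.87% and 23.1% of all genes in the 5 comparisons. The 5 genes of KO against Het, untreated, were Il1r2 at 0.79 ± 0.30, Il1rn at -1.19 ± 0.45, Tnfrsf1a at -0.27 ± 0.11, Ifngr1 at -0.56 ± 0.26 and Ifngr2 at -0.35 ± 0.10. Untreated Het replicate 1, the one with the lowest mesenchymal sum, was also the lowest of its group for Il1rn, Tnfrsf1a, Ifngr1 and Ifngr2. Leaving it out thus widens these differences by itself. Without it these 4 genes passed as lower in KO (edgeR adjusted p = 0.0396, 0.0138, 0.0196 and 0.00635). None of the 10 passed when any other single library of this comparison was left out. The share of all genes tested that passed in this comparison went from 0% to 10.3% when untreated Het replicate 1 was left out. With cytokines Il1rn was 34.4 ± 16.5 CPM for KO islets where WT islets had 72.8 ± 21.8 CPM, a log2 difference of -1.07 ± 0.43 that did not pass (edgeR adjusted p = 0.154). The KO and WT libraries did not overlap, as for 4 of the 10 genes and 30.5% of all genes tested. Il1r2 was at 0.71 ± 0.30 in the same comparison (adjusted p = 0.164) and passed without treated WT replicate 3, at 1.3 ± 0.26 (adjusted p = 0.0192).

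With all 18 libraries, no cytokine response of the 10 genes differed between genotypes by the test of the interaction. edgeR gave 0 passing and 0 with an unadjusted p under 0.05 among 30 such tests. Of all genes tested, 0%, 0.0114% and 0% passed with edgeR for Het against WT, KO against WT and KO against Het. DESeq2 and limma voom also called 0 of the 10 genes, and limma voom gave 3, 2 and 1 of them with an unadjusted p under 0.05 in this order. Of 17590 genes tested, DESeq2 called 0, 53 and 1 in the same order, and limma voom 0, 15 and 0. The smallest p with edgeR on all 18 libraries was that of Ifngr2. Its response was 0.28 ± 0.14 larger in KO than in Het islets (unadjusted p = 0.0630, adjusted p = 0.867) and 0.25 ± 0.14 larger than in WT (adjusted p = 0.821). The interval of 2 SE for KO against WT ran from -0.03 to 0.54. A fit chosen after seeing the data left out untreated Het replicate 1 and untreated KO replicate 3. There edgeR called 1 of the 10 genes, Tnfrsf1a, for KO against Het, and 64 of 17750 genes tested. In that comparison 5 of the 10 genes had an unadjusted p under 0.05.

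The wider pathways were read from lists of other genes, to be set beside the 12.5%, 12.7% and 15.3% of all genes that rose and the 25.7%, 24.5% and 31.3% that changed either way in WT, Het and KO islets. Of 20 tested IL-1 family ligands, receptors and adaptors, 7 rose and none fell in WT, 7 rose and none fell in Het, and 5 rose and 1 fell in KO islets. The largest changes that passed in all 3 genotypes were those of Il18rap, a chain of the IL-18 receptor, at 2.87 ± 0.48 in WT, of Irak3, an inhibitor of IL-1 and Toll-like receptor signalling, at 2.36 ± 0.13, and of Il1b itself at 1.5 ± 0.27. Irak3 went from 5.68 ± 0.92 to 29.2 ± 1.78 CPM (SD, n = 3) in WT islets. Of 21 genes of the TNF receptor signalling complex, 8 rose and 1 fell in each genotype: Birc3, a ubiquitin ligase of the complex, rose by 2.67 ± 0.18 in WT, 3.20 ± 0.18 in Het and 3.66 ± 0.19 in KO islets, and the inhibitor Tnfaip3 by 2.23 ± 0.28, 2.24 ± 0.28 and 2.57 ± 0.29. Tnf rose by 2.36 ± 0.31 in WT. Of 19 other receptors of the TNF superfamily, WT islets had 4 that rose and 2 that fell, Het islets 5 and 1, and KO islets 5 and 3. There the soluble decoy receptor Tnfrsf11b rose by 2.28 ± 0.18 in WT, the death receptor Fas by 1.44 ± 0.28 and the costimulatory receptor Cd40 by 0.88 ± 0.10.

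Of 20 tested genes of interferon-γ and JAK-STAT signalling, 7 rose and 1 fell in WT, 9 rose and 4 fell in Het and 9 rose and 5 fell in KO islets. The feedback inhibitors of JAK kinases Socs1 and Socs3 rose by 2.48 ± 0.36 and 1.26 ± 0.16 in WT, and Ptpn1, a phosphatase of Jak2, by 0.94 ± 0.06. Socs1 went from 2.5 ± 0.57 to 14.0 ± 1.07 CPM. Of 30 other tested receptors that signal through JAK kinases, WT islets had 7 that rose and 3 that fell, Het islets 6 and 3, and KO islets 7 and 6. The prolactin receptor Prlr was at -1.92 ± 0.16 in WT, -2.18 ± 0.16 in Het and -2.19 ± 0.16 in KO islets, while Il13ra1 rose by 1.13 ± 0.26 and Il22ra1 by 0.99 ± 0.29 in WT. Median log2 fold changes of the 5 lists in WT were 0.23, 0.15, 0.17, 0.09 and 0.49, in the order given, beside -0.01 over all genes tested.

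Between untreated KO and WT islets 9 of the 110 tested genes of the 5 lists passed, 3 higher and 6 lower, which is 8.18% beside 2.94% of all genes tested. Higher in KO were Csf2ra, a receptor chain for GM-CSF, at 0.50 ± 0.08, Prlr at 0.73 ± 0.16 and the interleukin-6 receptor Il6ra at 0.44 ± 0.09. Lower were Il22ra1 at -1.93 ± 0.36, Birc3 at -0.80 ± 0.18, the interferon-λ receptor Ifnlr1 at -0.75 ± 0.19, the STAT5 feedback inhibitor Cish at -0.45 ± 0.11, the A20-binding protein Tnip1 at -0.41 ± 0.08 and Stat3 at -0.22 ± 0.05. With cytokines 5 of the 110 passed, 4.55% beside 5.33% of all genes tested. Higher in KO was 1 gene, Il6ra at 0.36 ± 0.09, and lower were 4 genes, Ifnlr1 at -0.95 ± 0.19, Il22ra1 at -1.18 ± 0.30, Cish at -0.48 ± 0.11 and Map3k5, a stress kinase bound by TRAF2, at -0.30 ± 0.07. All 13 acinar markers were lower in KO islets too, untreated and with cytokines, as were 2 of 7 duct cell markers in each, and 2 and 4 of 10 endothelial markers. With acinar and macrophage marker levels as covariates 0 of the 9 and 0 of the 5 genes passed, with smallest edgeR adjusted p-values of 0.282 and 0.741, and 9 and 4 of them kept the sign of their difference. The summed acinar level was lower in every KO than in every WT library of the same treatment, so this covariate and the genotype cannot be told apart.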

How the data were processed

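The authors deposited a table of raw read counts per gene for 55536 genes and 18 libraries, whole numbers that sum to 22990164 to 29946680 per library. Per the submitters' processing notes the build was GRCm38, and the tools, listed with no role, were STAR 2.5.2a, featureCounts 1.6.2, DESeq2 1.30.0, cutadapt 1.16 and FastQC 0.11.7. The annotation release and the strand setting of the counting are not given in the sources used here. Coordinates, exon lengths and overlaps come from GENCODE M21 on GRCm38, and promoter sequences, matched for all 10 genes by symbol, from RefSeq on GRCm38.p6.

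CPM and log2 fold changes were calculated from the deposited counts with R 4.3.3 and edgeR 4.0.16: filterByExpr with a count minimum of 10, TMM scaling, 1 mean per group in a quasi-likelihood model of all 18 libraries with robust estimation and 12 residual degrees of freedom, and 12 comparisons. Benjamini-Hochberg adjustment ran over all 17590 genes that passed the filter, and calls needed an adjusted p under 0.05. The scripts were tested on simulated data. Limma 3.58.1 and DESeq2 1.42.0 gave alternatives, and figures were drawn with Python 3.11.15 and matplotlib 3.10.9. Each pair of libraries in a group differed by more than sampling noise, with a mean chi-square per gene of at least 7.59.

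The members, the lists, the markers and the rule for named genes were chosen with earlier results of these data known. The rule names Slc30a8, the 10 members, up to 3 genes per pathway list with the largest change in WT islets that passed the same way in all 3 genotypes with a mean of at least 1 CPM, up to 3 per list that passed between genotypes, and, for a member that passed in all 3 genotypes and changed 2-fold in any, the 3 genes of nearest profile, of which 1 is not reported here. Il6ra was named outside it, after its values were seen. The fits were repeated with DESeq2, with limma voom and quality weights, on only the groups compared, on the genes of the deposited filtered table, without a filter, with RLE size factors, with a block for the replicate number, with marker levels as covariates and without each library. Chosen after seeing the data were the block by the number in the deposited metadata, no robust estimation, the mesenchymal covariate and leaving out both libraries that stand apart in mesenchymal markers.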

Additional observations from a re-analysis of the deposited data

How the results depend on the processing

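Over 39 results for single genes, 617 of 719 alternative values kept direction and side of the threshold, 37 no longer passed, 55 newly passed and 10 turned sign. None of those 10 had passed in the fit of all 18 libraries, and 1 passed once turned, Ifngr1 in Het with the mesenchymal covariate (adjusted p = 0.0453). The gene set of the deposited filtered table changed none of the 39. The log2 change of Ifngr1 in Het turned to 0.017 with genotype and number together as a replicate block, 0.036 with acinar and macrophage covariates and 0.63 with the mesenchymal covariate, and ran from -0.34 to 0.25 without single libraries. That of Il1r1 in Het turned to 0.011 with both libraries that stand apart in mesenchymal markers left out and ran from -0.11 to 0.013 without single libraries. That of Il1r2 ran without single libraries from -0.057 to 0.32 for KO and from -0.85 to 0.012 for WT. Of the 10 genes, those that passed with cytokines numbered 3 in KO with only the groups compared, where 4357 of 16460 genes tested passed. They numbered 8 in KO with the mesenchymal covariate (6933 of 17590) and with both libraries left out (5753 of 17750). In Het they numbered 7 with acinar and macrophage covariates (4670 of 17590) and 8 with the mesenchymal one (5607 of 17590). Without single libraries they numbered 5 to 6 in WT, 4 to 4 in Het and 3 to 7 in KO. Over all genes tested, 3368 to 3854, 3328 to 4092 and 4361 to 5136 passed in these fits. In what follows, the number of all genes tested that passed in a fit stands in brackets. For KO against WT, untreated, the count was 0 with RLE size factors (490), no filter (354) and only the groups compared (653). It was also 0 with acinar and macrophage covariates (0) and with no robust estimation (535). The count was 2 with limma voom (1756), the mesenchymal covariate (2539) or both libraries left out (1276), and 0 to 2 without single libraries (118 to 361). For KO against Het, untreated, it was 4 with voom (2279), 2 with the mesenchymal covariate (1447) and 6 with both left out (3015). Without single libraries it was 0 to 4 there (0 to 1855). For KO against WT with cytokines it was 4 with voom (4058) and 1 with the mesenchymal covariate (2881). Without single libraries it was 0 to 1 in that comparison (205 to 1300). For KO against Het with cytokines it was 1, Il1rn, with the mesenchymal covariate (1079). For the interaction of KO and Het it was 1, Tnfrsf1a, with both left out (64). Where no value of the alternative shows it, the cause was not tested. Il1r2 had the fewest reads of the 10 genes, and no test separated depth from the number of libraries.

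Same-numbered untreated and treated libraries did not all deviate together. The correlations over genes were 0.138, 0.063 and 0.208 for WT, 0.131, 0.380 and -0.219 for Het and 0.048, 0.194 and 0.392 for KO. Between libraries of different number of the same genotype they ran from -0.437 to 0.361. Whether same-numbered libraries share a source cannot be told from these values, and the fit of all 18 libraries did not use the numbers. With the number of the labels as a replicate block, 6, 4 and 4 genes passed with cytokines in WT, Het and KO and 0 for KO against WT untreated; with the number of the metadata 7, 4, 4 and 0; with genotype and number together 7, 6 and 6.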
